A study of Mus musculus with 12 samples.

Results

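The strain difference between BTBR mice given only the injection solvent and C57 mice given the same solvent was described for the nuclear genome in the medial prefrontal cortex (mPFC). BTBR vehicle mice (labelled BTBR+DMSO, genotype given as inbred strain) were compared with C57 vehicle mice (labelled C57+DMSO, genotype given as WT), with 3 libraries in each group. Both groups received DMSO intraperitoneally over 7 days and no drug, and the labels give neither sex nor age nor whether the 3 libraries of a group came from separate animals. The whole series holds 12 libraries, the other 6 being BTBR ASIV and C57 ASIV mice given astragaloside IV, a saponin of Astragalus root. Those 6 libraries entered here to estimate the spread and, in the last comparison, to set the strain difference under drug beside the one under vehicle. FPKM values, the authors' fragment counts scaled to exon length and library size, were the measure. Genes had to reach 1 FPKM in 3 libraries of the series, which 13586 of 17283 genes did. Of these 13550 lay on nuclear chromosomes, 27 on the mitochondrial genome and 9 were not placed by the annotation. The nuclear genes are described here, and 3696 further nuclear genes fell below the filter.

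Mice of the BTBR strain serve to model autism because of their low sociability and repetitive grooming, and they lack the corpus callosum. C57 mice are the usual inbred comparison strain, not littermates, so that the groups differ at very many positions of the genome. The mPFC is a layered cortical area of excitatory pyramidal neurons, inhibitory interneurons and glia that serves social and goal-directed behaviour. Its neurons hold their synapses together with adhesion proteins such as neurexins and protocadherins, carry signals through glutamate receptors and potassium channels, and renew their proteins through chaperones and the proteasome.

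The libraries held 16166328 to 18660039 fragments each. Replicates correlated at 0.971 to 0.982 in BTBR vehicle and at 0.991 to 0.992 in C57 vehicle on the log2 scale, and libraries of different strains at 0.924 to 0.948. The mean variance between replicates was 0.0642 in BTBR vehicle and 0.0226 in C57 vehicle, and the test pools both with the ASIV groups. RNAs of the mitochondrial genome made up 0.614 to 1.16% of fragments in BTBR vehicle and 5.01 to 5.42% in C57 vehicle, and those fragments are part of the FPKM denominator. Markers of striatal projection neurons, a cell type next to the mPFC, differed between libraries rather than groups. Their mean log2 level was 4.13, 4.53 and 2.93 in the BTBR vehicle libraries and 2.86, 3.21 and 4.31 in the C57 vehicle libraries, and 0 of their 10 tested genes was called. With that level added to the model after seeing the data, 2991 nuclear genes were called higher and 2766 lower. The Y-linked genes Ddx3y and Eif2s3y had more than 4 FPKM in all 6 vehicle libraries and were higher in BTBR (0.86 ± 0.12 and 0.70 ± 0.15). P-values measure the spread between these samples, which may be partly technical.

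Differences were tested with limma on log2(FPKM + 1), with Benjamini-Hochberg adjustment over all genes tested, and genes with an adjusted p under 0.05 count as called. The log2 difference is BTBR vehicle minus C57 vehicle with its standard error (SE). Of the nuclear genes 3024 were higher (22.3%) and 2804 lower (20.7%) in BTBR, together 43.0% of those tested. By at least 2-fold, 289 were higher (2.13%) and 336 lower (2.48%). In 53.2% of nuclear genes, called or not, the libraries of BTBR and C57 lay fully apart. The median log2 difference of all nuclear genes was 0.01. The balance of directions depended on the scaling. When every library was set to the same FPKM sum without mitochondrial genes, the median moved by -0.11 and the calls stood at 2029 higher and 3663 lower (35.6% higher, against 51.9%). Median ratio scaling, which holds the typical gene at no change, gave 2934 higher and 2892 lower. Counts of gene groups are therefore best read against these shares, and the groups whose balance turned under another scaling are named where they appear. With equal FPKM sums the balance of all nuclear genes turned as well, so such a turn is not particular to a group. Totals also fell with some libraries left out, to 2383 higher and 2146 lower without C57 vehicle replicate 1.

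The largest losses in BTBR were in genes of different roles. Snrpf, a ring protein of the spliceosome (chromosome 10, 93583029-93589706, mm10), had 0.193, 0.136 and 0.216 FPKM in BTBR vehicle, against 7.97, 7.98 and 6.93 FPKM in C57 vehicle. All BTBR values were under 1 FPKM and all C57 values above 6. Its log2 difference was -2.87 ± 0.19, adjusted p = 1.64e-06, a size that depends on the pseudocount, and 1 pseudogene carries a near-identical copy. Pttg1, the securin that delays the separation of sister chromatids (chromosome 11, 43420250-43426251), had 0.912, 0.439 and 0.588 FPKM in BTBR vehicle, against 9.43, 8.79 and 10.7 FPKM in C57 vehicle. Every BTBR library was under 1 FPKM and every C57 library above 8, and the difference was -2.70 ± 0.12, adjusted p = 4.25e-08. Chchd10, a protein of the mitochondrial intermembrane space, had 7.16, 5.2 and 5.11 FPKM in BTBR vehicle, against 42.0, 43.0 and 45.5 FPKM in C57 vehicle. The groups lay far apart, at -2.72 ± 0.21, adjusted p = 4.05e-06. Atp6v0c, the proton-binding ring of the vacuolar pump, stood at -2.30 ± 0.22, adjusted p = 1.57e-05, with 2 near-identical copies among pseudogenes. Myoc, the secreted protein myocilin of meninges and eye, was also lower (-2.38 ± 0.29, adjusted p = 9.28e-05). Markers of fibroblasts and meninges summed to 94.1 to 175 FPKM in BTBR vehicle and 245 to 395 FPKM in C57 vehicle, with 1 higher and 2 lower of 6 called, and their part in the Myoc value was not tested.

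Some of the largest values cannot be assigned to a single gene with certainty. Rpl29 (chromosome 9, 106429454-106431568) had the lowest log2 difference of the protein-coding genes named, -3.93 ± 0.96, adjusted p = 0.00854, with 6.53, 3.48 and 5.99 FPKM in BTBR vehicle, against 90.9, 87.2 and 103 FPKM in C57 vehicle. All BTBR libraries were under 10 FPKM and all C57 libraries above 80, but 35 other GENCODE M21 genes carry a stretch at least 95% identical to its transcript over 200 or more bases. Eno1b, an enolase copy, stood at 3.56 ± 0.11, adjusted p = 2.92e-09 and its relative Eno1 at -1.21 ± 0.09, adjusted p = 2.89e-06, and each has such copies. The same holds for Amd2 (2.37 ± 0.16, adjusted p = 1.73e-06), a copy of the adenosylmethionine decarboxylase of polyamine synthesis. Rps27rt (-2.43 ± 0.70) lost its call without BTBR vehicle replicate 2, without C57 vehicle replicate 1 and without C57 vehicle replicate 3. Among nuclear protein-coding genes with a transcript, 8.41% had such a copy, against 21.8% of those lower by at least 2-fold and 14.8% of those higher by at least 2-fold.

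The largest gains were also in genes of different roles. Ccdc85b, a coiled-coil protein that binds delta-catenins, had 783, 664 and 1261 FPKM in BTBR vehicle, against 242, 254 and 296 FPKM in C57 vehicle. The third BTBR library was highest, and no BTBR library came near the C57 range (1.72 ± 0.19, adjusted p = 3.85e-05). Atp5e, the epsilon subunit of ATP synthase, had 175, 190.2 and 216 FPKM in BTBR vehicle, against 52.2, 52.1 and 61 FPKM in C57 vehicle, again without overlap (1.79 ± 0.13, adjusted p = 2.24e-06). Snrpe, which sits in the same spliceosome ring as Snrpf, had 23, 28.3 and 18.9 FPKM in BTBR vehicle, against 9.34, 5.90 and 4.48 FPKM in C57 vehicle. It thus moved opposite to its ring partner (1.72 ± 0.25, adjusted p = 0.000287), and it too has 1 near-identical pseudogene. Fbxo2, the ubiquitin ligase subunit for glycoproteins, stood at 1.75 ± 0.18, adjusted p = 2.16e-05, Romo1, a small protein of the inner mitochondrial membrane, at 1.75 ± 0.15, adjusted p = 8.1e-06, Ccl17, a chemokine for T cells, at 1.78 ± 0.30, adjusted p = 0.000788, and Ctxn2, a cortexin of unclear function, at 1.69 ± 0.16, adjusted p = 1.4e-05. Among the most abundant RNAs, Pcsk1n, the inhibitor of a prohormone convertase, was higher (1.49 ± 0.22, adjusted p = 0.000247), and Syn1, the synapsin of synaptic vesicles, lower (-1.76 ± 0.11, adjusted p = 6.79e-07).

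**Figure D1:**
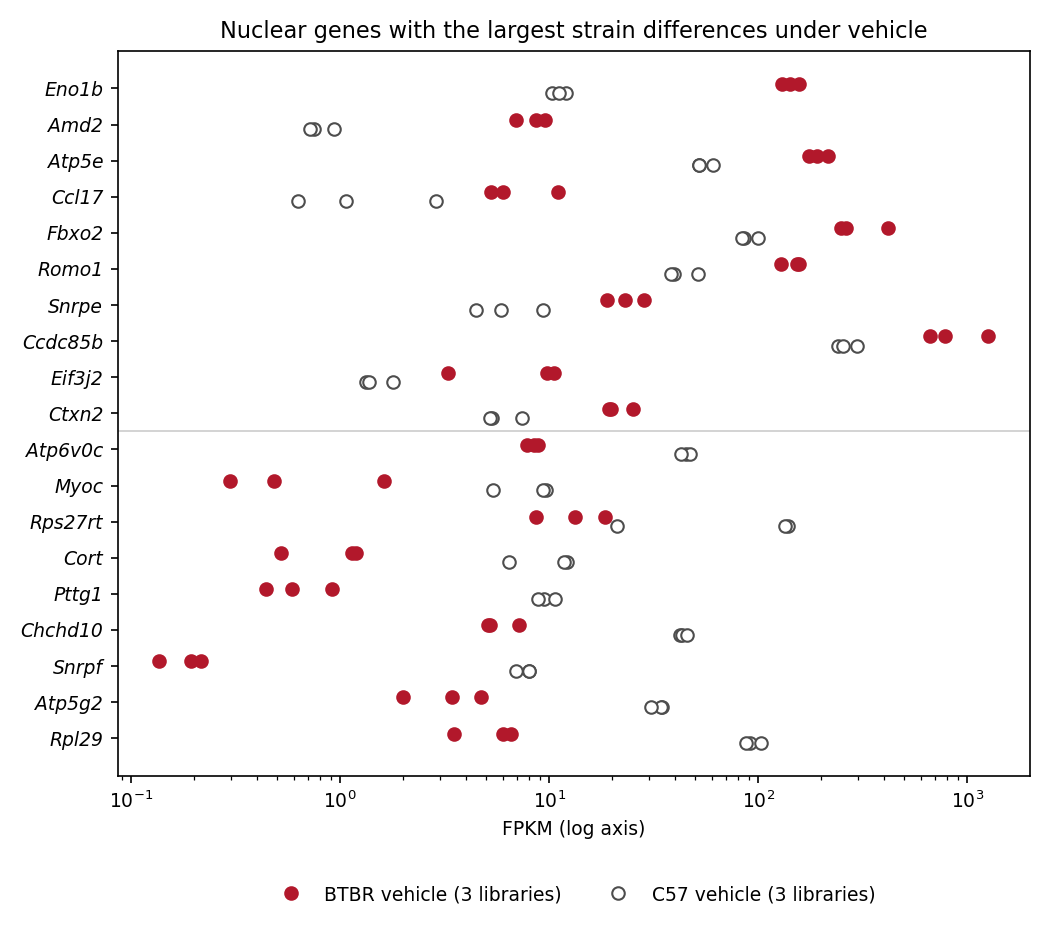
FPKM (log axis) of 19 of the 20 nuclear protein-coding genes with the largest log2 differences and no overlap of groups, BTBR vehicle libraries as filled points and C57 vehicle libraries as open points, 3 each. Rows above the line are higher in BTBR, from Eno1b at a log2 difference of 3.56 down to Ctxn2 at 1.69, and rows below it are lower, down to Rpl29 at -3.93.

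Subunit c of ATP synthase is made from 3 nuclear genes, Atp5g1, Atp5g2 and Atp5g3, which encode the same mature ring protein behind different targeting peptides. Atp5g2 (chromosome 15, 102662864-102672352) had 4.72, 1.99 and 3.43 FPKM in BTBR vehicle, against 34.6, 34.4 and 30.8 FPKM in C57 vehicle. Atp5g3 had 123, 159 and 137 FPKM in BTBR vehicle, against 86.2, 87.1 and 85.0 FPKM in C57 vehicle. The BTBR values of Atp5g2 were all far below, and those of Atp5g3 all above, the C57 values, at -3.02 ± 0.22, adjusted p = 2.89e-06 and 0.68 ± 0.12, adjusted p = 0.0006. Atp5g1 had 17.6, 15.5 and 12.9 FPKM in BTBR vehicle, against 18.5, 18.9 and 19.7 FPKM in C57 vehicle, which did not pass (-0.31 ± 0.12, adjusted p = 0.0513) but was called lower without BTBR vehicle replicate 1. Over the last 225 coding bases the genes share 84.9% of positions (Atp5g1 and Atp5g2), 80.0% (Atp5g1 and Atp5g3) and 78.7% (Atp5g2 and Atp5g3), so that they differ at many positions. A stretch of 90 of these bases from GENCODE M21 transcripts is shown for all 3 genes, 5′ to 3′ on the coding strand, with the 22 positions at which they are not all alike in capitals:
Atp5g1: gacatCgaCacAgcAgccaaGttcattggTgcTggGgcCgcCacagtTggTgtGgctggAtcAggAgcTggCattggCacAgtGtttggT
Atp5g2: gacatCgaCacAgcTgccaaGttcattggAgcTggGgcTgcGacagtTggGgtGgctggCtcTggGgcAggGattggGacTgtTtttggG
Atp5g3: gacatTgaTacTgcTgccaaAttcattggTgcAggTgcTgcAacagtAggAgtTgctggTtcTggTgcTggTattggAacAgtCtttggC
Atp5g2 had 0 near-identical copies by the measure used for Rpl29.

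Synaptic adhesion proteins, which bridge the synaptic cleft and decide which neurons connect, were lower more often than nuclear genes at large. Of 54 members 27 were lower and 2 higher, against 20.7% and 22.3% of all nuclear genes, with a median of -0.35. Cadm3, a cell adhesion molecule of axons (chromosome 1, 173333258-173367695), had 22.7, 26.9 and 23.6 FPKM in BTBR vehicle, against 69.8, 65.1 and 61 FPKM in C57 vehicle. No BTBR library reached 30 FPKM, while no C57 library was under 60 (-1.39 ± 0.11, adjusted p = 3.48e-06). Lrrtm1, a postsynaptic partner of neurexins, had 7.11, 7.35 and 5.79 FPKM in BTBR vehicle, against 17.3, 13 and 16.3 FPKM in C57 vehicle. The groups were again apart (-1.09 ± 0.13, adjusted p = 7.12e-05), and so were those of Dscaml1, a homophilic adhesion protein (-1.05 ± 0.09, adjusted p = 5.81e-06). The 2 higher members were Cbln1 (0.62 ± 0.16), which ties neurexins to glutamate delta receptors, and Cadm4 (0.39 ± 0.10), whose call was lost when libraries were set to equal FPKM sums without mitochondrial genes. Without C57 vehicle replicate 1 the counts were 17 lower and 2 higher.

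Excitatory neuron markers moved in the same direction. Of 9 tested markers 5 were lower and 0 higher, with a median of -0.63, and their summed level was 817.2 to 945.0 FPKM in BTBR vehicle and 1073 to 1170 FPKM in C57 vehicle. Emx1, which marks the cortical excitatory lineage, had 5.87, 6.57 and 7.62 FPKM in BTBR vehicle, against 12.2, 10.4 and 10.1 FPKM in C57 vehicle. All 3 BTBR libraries were below all C57 libraries (-0.63 ± 0.12, adjusted p = 0.000948). Camk2a, the main CaMKII subunit of these cells, stood at -0.66 ± 0.12, adjusted p = 0.000736. Upper layer markers had 5 lower and 0 higher of 8 (median -0.57), with Lamp5 at -0.76 ± 0.14 and Cux1 at -0.55 ± 0.12. Deep layer markers had 2 higher and 0 lower of 10 (median 0.20). Their share higher, 20%, was near the 22.3% of all nuclear genes. Of the 2 higher ones Hs3st4, a heparan sulfate enzyme of layer 6 neurons, stood at 1.27 ± 0.27, adjusted p = 0.00291. The other, Tle4 (0.41 ± 0.14), lost its call without BTBR vehicle replicate 3, without each C57 vehicle library and under both scalings without mitochondrial RNA. Markers of the olfactory bulb and tract, which adjoin the mPFC, summed to 11.9 to 17.7 FPKM in BTBR vehicle and 28.6 to 51.7 FPKM in C57 vehicle. Of these 4 genes 1 was lower (25%) and 0 higher, with a median of -1.48. In all 4 the libraries of the strains lay fully apart, against 53.2% of all nuclear genes. With the 6 vehicle libraries alone 3 of the 4 were called lower. Of 5 thalamic markers 2 were lower (40%) and 0 higher (median -0.29). Among all nuclear genes 20.7% were lower, and both lists are short. In bulk tissue fewer cells of a type and less RNA per cell cannot be told apart, and the part of these markers in the synaptic results was not tested.

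Clustered protocadherins give each neuron a surface identity, and their gamma group shares its last exons among all its members, so reads from those exons fit several genes. Of 39 tested members 15 were lower and 2 higher, with a median of -0.20. Pcdhga11 had 0.302, 0.554 and 0.338 FPKM in BTBR vehicle, against 2.91, 2.69 and 2.68 FPKM in C57 vehicle. All BTBR values were under 1 FPKM (-1.43 ± 0.11, adjusted p = 3.92e-06), and Pcdhgc3 likewise lay apart from C57 (-1.37 ± 0.14, adjusted p = 2.14e-05). The 2 higher members were Pcdhb22 (0.46 ± 0.11) and Pcdhb20 (0.33 ± 0.12), of the beta group. Pcdhb20 lost its call without BTBR vehicle replicate 2 and without each C57 vehicle library, and the counts were 4 higher and 12 lower without BTBR vehicle replicate 1. In the axon guidance list (median -0.02) 16 of 67 were lower (23.9%) and 6 higher (8.96%). The share lower was thus near the 20.7% of all nuclear genes, and the share higher was below their 22.3%. Of the lower ones Efna3, a membrane-bound ephrin ligand, stood at -1.10 ± 0.11, adjusted p = 1.62e-05, and L1cam, an axonal adhesion protein, at -0.74 ± 0.10, adjusted p = 0.000175. Of the higher ones Plxnb1, a semaphorin receptor, stood at 0.67 ± 0.13, adjusted p = 0.00166. The count of 6 higher members became 3 without C57 vehicle replicate 2 and without C57 vehicle replicate 3.

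Among glutamate receptors the metabotropic family, which acts through G proteins, was lower in 5 of 7 members and higher in 0, with a median of -0.58. Grm5, the postsynaptic receptor coupled to calcium release (chromosome 7, 87584168-88134907), had 8.63, 12.5 and 8.76 FPKM in BTBR vehicle, against 18.3, 17.4 and 16.0 FPKM in C57 vehicle. Replicate 2 was the highest BTBR library and still lay under the lowest C57 library (-0.75 ± 0.14, adjusted p = 0.00104). Grm3, found on glia and neurons, stood at -0.83 ± 0.14, adjusted p = 0.000535, and Grm7, of the presynaptic terminal, at -0.58 ± 0.12, adjusted p = 0.00211. The count of lower members was 3 without BTBR vehicle replicate 1, without BTBR vehicle replicate 3 and without C57 vehicle replicate 2. The ionotropic family, whose members are ion channels, had 3 lower and 2 higher of 16 (median -0.08). Grin2b, the NMDA receptor subunit of slow currents, had 8.72, 14.2 and 8.80 FPKM in BTBR vehicle, against 23.1, 23.6 and 18.7 FPKM in C57 vehicle, which did not overlap (-1.01 ± 0.18, adjusted p = 0.000746), and Grid1, a delta receptor, stood at -0.63 ± 0.11, adjusted p = 0.000829. The kainate receptor subunit Grik5 was higher (0.85 ± 0.20, adjusted p = 0.00512), with BTBR vehicle replicate 3 far above the other libraries. Without C57 vehicle replicate 1 the ionotropic counts were 1 higher and 2 lower.

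Potassium channels, which set the resting state and repolarise neurons, were lower in 19 of 42 members and higher in 7, with a median of -0.29. Kcnip4, a calcium-binding partner of A-type channels, had 3.87, 4.0 and 3.97 FPKM in BTBR vehicle, against 11.7, 11.2 and 11.6 FPKM in C57 vehicle. The replicates of each group lay within 1 FPKM of each other, and the groups were more than 7 FPKM apart (-1.33 ± 0.12, adjusted p = 7.07e-06). Kcnmb4, the neuronal accessory subunit of calcium-activated channels, stood at -1.06 ± 0.17, adjusted p = 0.000365, and Kcnq5, which carries the M-current, at -0.74 ± 0.12, adjusted p = 0.000471. On the higher side were Kcnk1 (0.53 ± 0.12, adjusted p = 0.00383), a leak channel, and Kcna6 (0.42 ± 0.10, adjusted p = 0.00578). The higher count fell to 3 without C57 vehicle replicate 1 or 2 and to 4 without BTBR vehicle replicate 2 or 3, and it was 2 with equal FPKM sums without mitochondrial genes.

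Microtubule genes were lower more often than higher. Among 29 tubulins, microtubule-associated proteins and stathmins, 13 were lower and 3 higher, with a median of -0.39. Tuba1a, the main alpha-tubulin of developing neurons (chromosome 15, 98949837-98953703), had 94.5, 90.5 and 53.8 FPKM in BTBR vehicle, against 316, 277 and 275 FPKM in C57 vehicle. BTBR was lower in every library (-1.89 ± 0.20, adjusted p = 3.02e-05), although 11 other genes carry near-identical stretches. Mapre2, which binds growing microtubule ends, stood at -0.99 ± 0.09, adjusted p = 8.34e-06, and Mapt, the axonal protein tau, at -0.66 ± 0.10, adjusted p = 0.000208; neither has such a copy. The 3 higher members were all stathmins, which take microtubules apart. Stmn3 (chromosome 2, 181306459-181314500) had 977, 1388 and 1041 FPKM in BTBR vehicle, against 440.4, 424 and 433 FPKM in C57 vehicle. The C57 libraries lay within 20 FPKM of each other and every BTBR library was above 900 FPKM (1.37 ± 0.14, adjusted p = 1.91e-05). Stmn4 (0.37 ± 0.11) lost its call without BTBR vehicle replicate 1 and without C57 vehicle replicate 2. Stmn1 (0.48 ± 0.18, adjusted p = 0.046) lost it without any 1 of the 6 vehicle libraries.

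**Figure D2:**
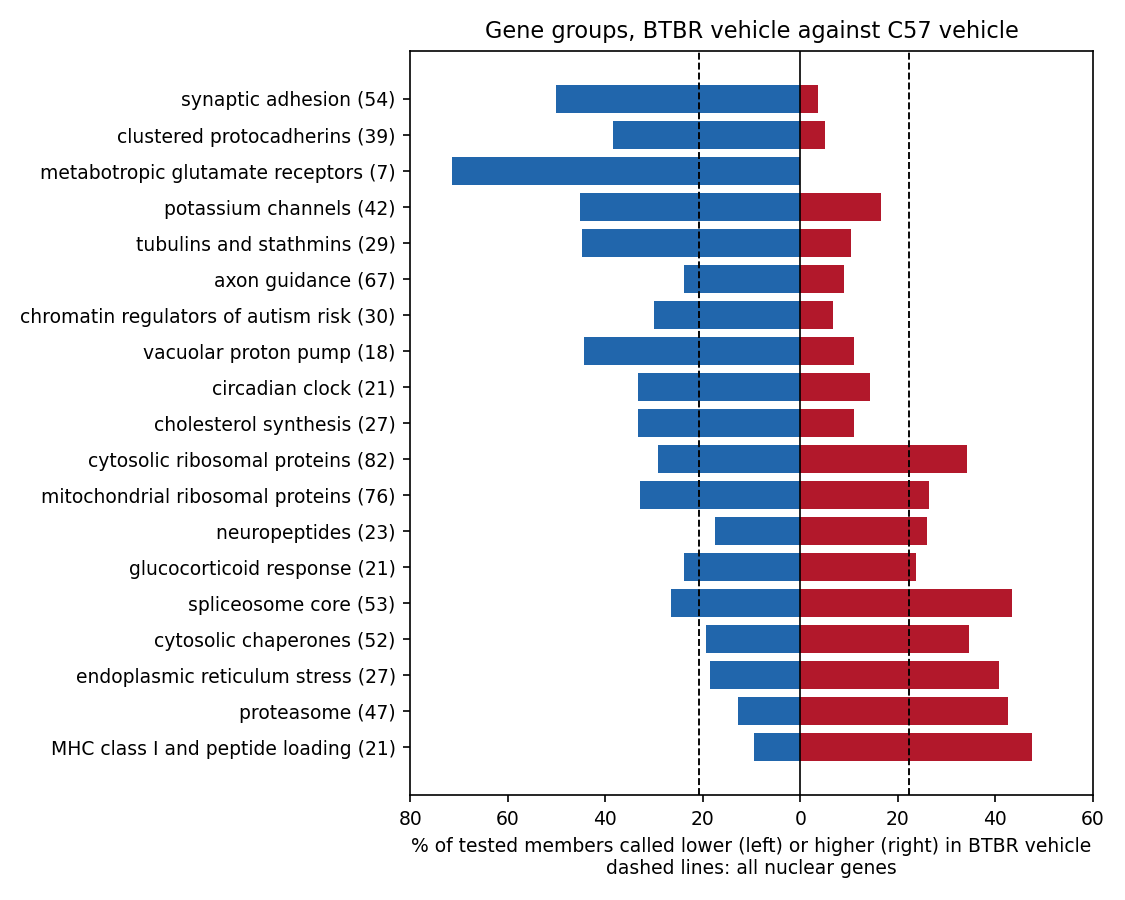
Share of the tested members of 19 gene groups (their number in brackets) called lower (left, blue) or higher (right, red) in BTBR vehicle. Dashed lines mark the shares of all nuclear genes, 20.7% lower and 22.3% higher; synaptic adhesion has 27 of 54 lower and the proteasome 20 of 47 higher.

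Lists of protein folding and breakdown differed in their balance. Ubiquitin and its ligases had 7 higher and 9 lower of 35 (median -0.01), and lysosomal enzymes and membrane proteins 4 higher and 9 lower of 31 (median -0.14), or 2 and 15 with equal FPKM sums without mitochondrial genes. The proteasome, the barrel that degrades ubiquitin-tagged proteins, had 20 of 47 genes higher and 6 lower, with a median of 0.19. Psmd13, a lid subunit of the regulatory cap, had 30.9, 40.7 and 33.5 FPKM in BTBR vehicle, against 19.0, 17.6 and 17.7 FPKM in C57 vehicle. BTBR was higher in every library (0.91 ± 0.11, adjusted p = 4.86e-05), as it was for Psmg3, an assembly chaperone (1.18 ± 0.14, adjusted p = 4.97e-05), and for Psmb10, the inducible catalytic subunit of the immunoproteasome (1.04 ± 0.11, adjusted p = 3.25e-05). Core subunits of the catalytic barrel were among both the higher and the lower genes. Of the lower ones Psmb2 (chromosome 4, 126677630-126709714) had 9.55, 7.15 and 6.58 FPKM in BTBR vehicle, against 30.2, 24.6 and 29.6 FPKM in C57 vehicle, with the C57 libraries at least 15 FPKM above every BTBR library (-1.74 ± 0.15, adjusted p = 7.84e-06), and Psmb7 stood at -0.93 ± 0.13, adjusted p = 0.000137. With equal FPKM sums without mitochondrial genes 18 were higher and 12 lower. Cytosolic chaperones had 18 higher and 10 lower of 52, and 14 higher and 16 lower under that scaling. Their balance turned, as did that of all nuclear genes under it (2029 higher and 3663 lower). Bag5 (0.81 ± 0.10, adjusted p = 9.49e-05), a regulator of Hsp70, and Vbp1 (0.63 ± 0.10, adjusted p = 0.000525), a prefoldin subunit, were higher. The inducible heat shock protein Hspa1a (-1.08 ± 0.14, adjusted p = 0.000116), which has 1 near-identical copy, was lower, as was Ppia (-1.89 ± 0.21, adjusted p = 3.85e-05), cyclophilin A, which has 20 near-identical copies.

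Of 27 genes of the endoplasmic reticulum (ER) stress response 11 were higher and 5 lower (median 0.17), and 7 were higher and 9 lower with equal FPKM sums without mitochondrial genes. Most of the higher ones fold or process secreted proteins inside the ER, but Edem1, of ER-associated degradation, was higher too. The co-chaperone Dnajb9 was lower, and the folding genes Calr, Hyou1, Manf and Sdf2l1 did not pass. Edem1 and the genes that did not pass are named outside the naming rule, after their calls were seen. Creld2, an ER stress-inducible chaperone (chromosome 15, 88819646-88826683), had 14.6, 13.6 and 17.2 FPKM in BTBR vehicle, against 6.63, 7.66 and 8.06 FPKM in C57 vehicle. Each BTBR library was above 13 FPKM and each C57 library under 9 (0.93 ± 0.10, adjusted p = 3.69e-05). Dnajc3, a co-chaperone and kinase inhibitor, stood at 0.65 ± 0.09, adjusted p = 0.000117, and P4hb, a disulfide isomerase, at 0.61 ± 0.09, adjusted p = 0.000183. Hspa5, the ER Hsp70 known as BiP and named here outside the naming rule after its values were seen, had 68.5, 79.6 and 65.0 FPKM in BTBR vehicle, against 35.9, 42.7 and 39.7 FPKM in C57 vehicle. Its lowest BTBR library was above its highest C57 library (0.83 ± 0.16, adjusted p = 0.00147). Among the lower ones were Herpud1 (-0.67 ± 0.10, adjusted p = 0.000201), of ER-associated degradation, and Chac1 (-0.62 ± 0.15, adjusted p = 0.00588), which breaks down glutathione downstream of the kinase PERK. The lower count was 2 without C57 vehicle replicate 1 and 3 without C57 vehicle replicate 2.

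The ER stress response element, CCAAT and CCACG with 9 bases of any kind between them, is bound by the factors NF-Y and ATF6. It was searched on both strands of RefSeq GRCm38.p6 promoters, taken as 250 bases before to 50 bases after each start. It occurred in 0.119% of 32851 such promoters and, counted by gene, in 0.137% of 27025 genes. In the ER stress list it was found in 6 of 11 higher genes, in 0 of 4 lower genes with a promoter and in 2 of 9 such genes that did not pass. The promoters of Hspa5 and Creld2 are shown because both genes were higher and both carry the element, which is in capitals and reads in the forward direction in Hspa5 and in the reverse direction in Creld2. Hspa5 lies at chr2:34771840-34772139 (plus strand) and Creld2 at chr15:88819396-88819695 (plus strand):
Hspa5: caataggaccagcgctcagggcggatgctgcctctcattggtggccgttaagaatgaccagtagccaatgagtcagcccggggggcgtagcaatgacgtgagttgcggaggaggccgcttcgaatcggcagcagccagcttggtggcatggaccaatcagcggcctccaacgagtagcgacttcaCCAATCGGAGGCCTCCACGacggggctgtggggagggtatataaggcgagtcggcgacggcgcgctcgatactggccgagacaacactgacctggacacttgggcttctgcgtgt
Creld2: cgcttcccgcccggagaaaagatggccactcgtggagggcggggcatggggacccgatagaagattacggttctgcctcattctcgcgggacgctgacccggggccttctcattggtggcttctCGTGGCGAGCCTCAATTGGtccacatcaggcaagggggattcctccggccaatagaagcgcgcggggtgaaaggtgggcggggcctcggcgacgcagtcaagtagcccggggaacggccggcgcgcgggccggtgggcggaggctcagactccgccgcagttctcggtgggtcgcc
A match is a description of the letters, and binding was not measured. The list was chosen as ER stress genes, so its excess of matches over all genes describes the list and not the strains. The part of the element in the strain difference was not tested.

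Of 53 spliceosome proteins 23 were higher (43.4%) and 14 lower (26.4%), with a median of 0.07, against 22.3% higher and 20.7% lower among all nuclear genes. With equal FPKM sums without mitochondrial genes the counts were nearly even, at 18 higher and 17 lower. Phf5a, a small subunit of the SF3b complex that recognises the branch point (chromosome 15), had 25.2, 31.3 and 29.7 FPKM in BTBR vehicle, against 8.59, 8.73 and 9.68 FPKM in C57 vehicle. BTBR exceeded C57 in every library (1.57 ± 0.12, adjusted p = 2.67e-06). Sart1, needed to assemble the tri-snRNP, stood at 1.12 ± 0.09, adjusted p = 5.28e-06. On the lower side Snrpa, of the U1 particle, had 4.90, 3.30 and 4.17 FPKM in BTBR vehicle, against 14.8, 16.8 and 14.4 FPKM in C57 vehicle, without overlap (-1.68 ± 0.17, adjusted p = 2.22e-05), and Sf3b4, of the same SF3b complex as Phf5a, stood at -1.01 ± 0.09, adjusted p = 1.06e-05, with 1 near-identical copy. The mRNAs of partner proteins thus differed in opposite directions. Cytosolic ribosomal proteins showed the same kind of split, with 28 higher and 24 lower of 82 (median 0.18), and 22 higher and 27 lower with equal FPKM sums without mitochondrial genes. Rpl27 was at -1.73 ± 0.15, adjusted p = 8.65e-06 and Rps3a1 at 1.49 ± 0.12, adjusted p = 5.47e-06, but 74 of the 82 have near-identical copies and single values are uncertain. Of 76 mitochondrial ribosomal proteins, 16 of which have such copies, 20 were higher and 25 lower (median -0.01), with Mrpl52 at 1.43 ± 0.14, adjusted p = 1.57e-05 and Mrpl42 at -2.01 ± 0.17, adjusted p = 7.07e-06, neither with a copy.

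**Figure D3:**
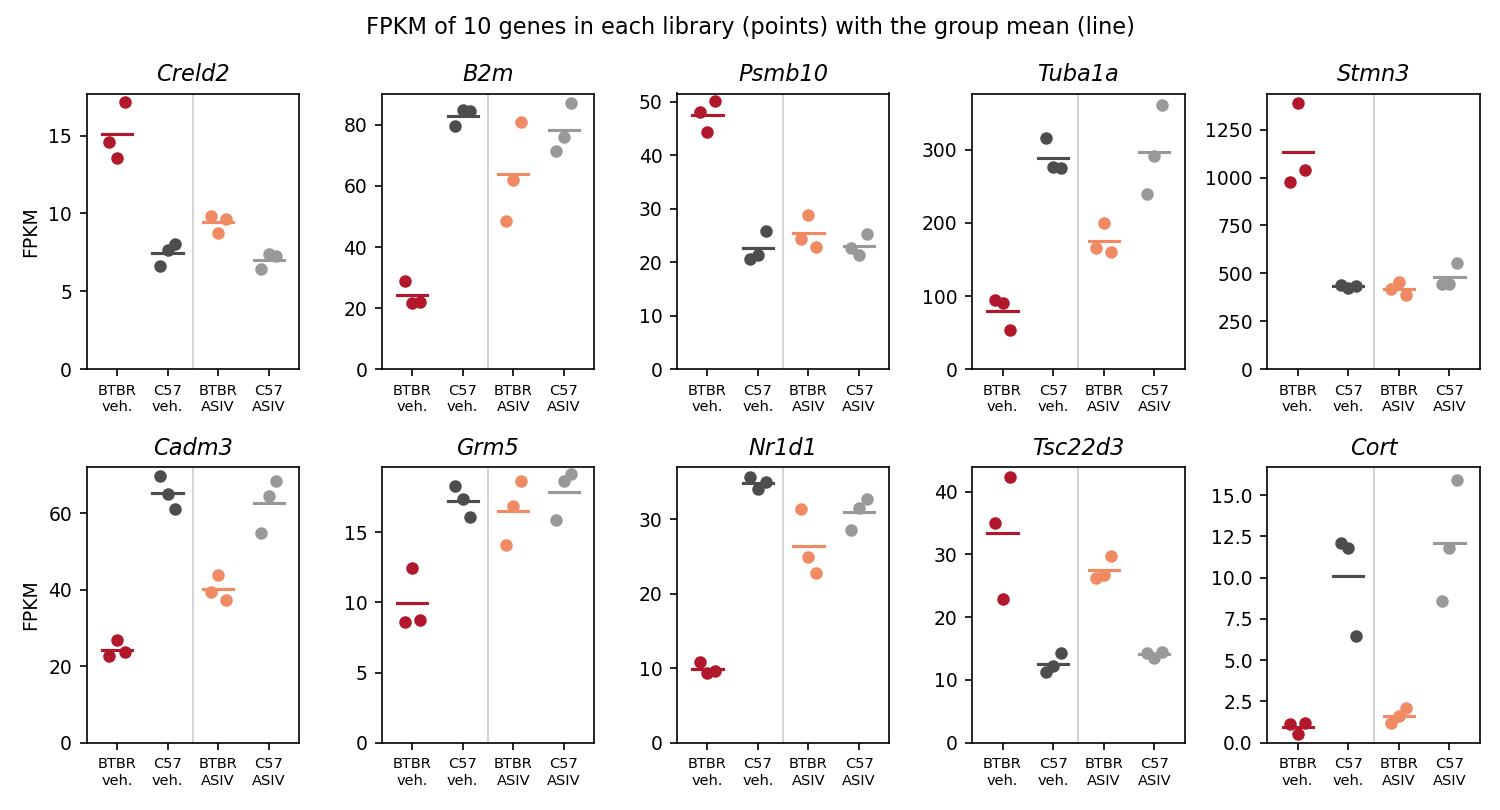
FPKM of 10 genes in each of the 12 libraries, points per library and a line at the group mean, with the vehicle pair left and the ASIV pair right of the divider and BTBR left of C57 in each. Creld2, Psmb10, Stmn3 and Tsc22d3 lie higher and B2m, Tuba1a, Cadm3, Grm5, Nr1d1 and Cort lower in BTBR vehicle than in C57 vehicle, without overlap.

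Antigen presentation by MHC class I had 10 of 21 genes higher (47.6%) and 2 lower (9.52%), with a median of 0.13. Among all nuclear genes 22.3% were higher and 20.7% lower. The higher count was 7 without C57 vehicle replicate 1, and the higher members include Psmb10, already named with the proteasome. The summed level was 195 to 212 FPKM in BTBR vehicle and 173 to 205 FPKM in C57 vehicle. Class I heavy chains show peptides at the cell surface together with the light chain beta-2 microglobulin. Among the heavy chains H2-Q4 had 6.02, 4.15 and 4.22 FPKM in BTBR vehicle, against 1.47, 1.94 and 2.46 FPKM in C57 vehicle, and all BTBR libraries were above 4 FPKM (0.97 ± 0.16, adjusted p = 0.000466). H2-T23, a nonclassical chain, stood at 0.96 ± 0.15, adjusted p = 0.000312, with 9 near-identical copies. The light chain gene B2m (chromosome 2, 122147686-122153083) had 29.0, 21.8 and 21.9 FPKM in BTBR vehicle, against 79.6, 85.0 and 84.5 FPKM in C57 vehicle. It was lower in every BTBR library (-1.75 ± 0.16, adjusted p = 1.19e-05), opposite to H2-Q4 and H2-T23. The other lower member, H2-T24 (-0.43 ± 0.14), lost its call without BTBR vehicle replicate 1 or 3 and without C57 vehicle replicate 2 or 3. The class I genes differ in sequence between mouse strains, and how reads with such differences were mapped is not given in the sources used here. In the interferon list 3 were higher and 4 lower of 27 (median -0.02). Chemokines and cytokines had 4 higher and 9 lower of 22 (median -0.25), with Mif, a cytokine that neurons also make, at -1.73 ± 0.14, adjusted p = 5.74e-06 and with 2 near-identical copies.

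Microglial markers were split as well, with 4 of 16 higher and 7 lower, a median of 0.00 and a summed level of 337.0 to 389.6 FPKM in BTBR vehicle and 327.4 to 391.7 FPKM in C57 vehicle. P2ry12, the purinergic receptor of resting microglia, had 5.19, 3.29 and 2.65 FPKM in BTBR vehicle, against 16.6, 14.4 and 16.7 FPKM in C57 vehicle. Cd68, a lysosomal protein of phagocytic cells, had 0.923, 0.512 and 0.984 FPKM in BTBR vehicle, against 5.16, 5.47 and 6.36 FPKM in C57 vehicle. Both were lower in every BTBR library (-1.88 ± 0.16, adjusted p = 6.28e-06 and -1.89 ± 0.15, adjusted p = 4.8e-06), while Aif1, which encodes Iba1, was higher (0.78 ± 0.12, adjusted p = 0.000411). The higher count was 1 without C57 vehicle replicate 1 and 2 without BTBR vehicle replicate 3, and the lower count was 4 without C57 vehicle replicate 3. Mature oligodendrocyte markers had 3 higher and 1 lower of 13 (median 0.05), and their summed level was 667.6 to 1565 FPKM in BTBR vehicle and 764.1 to 899.2 FPKM in C57 vehicle. The higher ones were the myelin genes Mal, Mog and Cldn11, and 0 of them stayed called without BTBR vehicle replicate 1, without BTBR vehicle replicate 3 or without C57 vehicle replicate 2. Without C57 vehicle replicate 1 only 1 of them was called. Astrocyte markers had 3 higher and 4 lower of 12 (median -0.20).

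Neuropeptide genes held a contrast between close relatives. Somatostatin and cortistatin are related peptides that bind the same receptors and are made by cortical interneurons. Cort (chromosome 4, 149125034-149126763) had 1.14, 0.519 and 1.19 FPKM in BTBR vehicle, against 12.1, 11.8 and 6.45 FPKM in C57 vehicle. Sst (chromosome 16, 23889573-23890958) had 746, 760.1 and 843 FPKM in BTBR vehicle, against 276, 272 and 323 FPKM in C57 vehicle. Every BTBR library was lower for Cort (-2.48 ± 0.25, adjusted p = 2.68e-05) and higher for Sst (1.43 ± 0.17, adjusted p = 5.75e-05), and neither gene has a near-identical copy. Over the 23 neuropeptide genes 6 were higher (26.1%) and 4 lower (17.4%), with a median of 0.03. These shares were near the 22.3% and 20.7% of all nuclear genes. The lower ones included Npy, neuropeptide Y (-1.62 ± 0.22, adjusted p = 0.000138), and the higher ones Tac2, neurokinin B (0.71 ± 0.10, adjusted p = 0.000171). Inhibitory neuron markers had 3 lower and 0 higher of 10, among them Slc32a1, the vesicular GABA transporter (-0.89 ± 0.14, adjusted p = 0.000381). Their summed level was 170.5 to 197.9 FPKM in BTBR vehicle and 186.3 to 244.8 FPKM in C57 vehicle.

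The cAMP response element, TGACGTCA, through which CREB drives somatostatin, was searched on both strands of the same promoters and occurred in 1.79% of them. Most promoters thus lack an exact match. Only letters of the reference genome were searched, without BTBR variants, and the part of the element in the strain differences was not tested. The promoter of Sst holds 1 match, in capitals, and that of Cort holds 0. They are shown for the contrast between these relatives, Sst from chr16:23890795-23891094 (minus strand) and Cort from chr4:149126714-149127013 (minus strand), both GRCm38.p6:
Sst: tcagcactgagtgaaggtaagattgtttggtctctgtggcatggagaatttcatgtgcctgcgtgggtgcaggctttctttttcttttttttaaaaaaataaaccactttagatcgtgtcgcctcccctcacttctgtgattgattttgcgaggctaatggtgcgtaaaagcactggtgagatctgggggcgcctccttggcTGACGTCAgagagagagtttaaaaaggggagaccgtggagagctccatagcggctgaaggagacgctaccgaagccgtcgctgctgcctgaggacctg
Cort: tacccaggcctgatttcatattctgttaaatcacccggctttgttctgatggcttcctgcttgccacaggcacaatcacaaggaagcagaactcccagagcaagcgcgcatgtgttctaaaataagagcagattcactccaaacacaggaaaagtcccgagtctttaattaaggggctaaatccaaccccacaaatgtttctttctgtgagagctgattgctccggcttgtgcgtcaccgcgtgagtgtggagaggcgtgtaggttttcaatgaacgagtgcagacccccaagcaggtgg

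The calcium signalling list held genes called in both directions, as did nuclear genes at large. Of 28 genes 5 were higher (17.9%) and 8 lower (28.6%), with a median of -0.03. Among all nuclear genes 22.3% were higher and 20.7% lower. Pvalb, the calcium buffer of fast-spiking interneurons, had 145, 114 and 80.8 FPKM in BTBR vehicle, against 36.8, 36.7 and 44.1 FPKM in C57 vehicle. It was higher in every BTBR library (1.47 ± 0.21, adjusted p = 0.000178). Cabp1, a neuronal relative of calmodulin, was higher too (1.18 ± 0.11, adjusted p = 1.25e-05). Pcp4, which speeds calcium exchange on calmodulin, had 4.42, 5.14 and 3.44 FPKM in BTBR vehicle, against 22.5, 22.1 and 18.8 FPKM in C57 vehicle, and BTBR was lower (-2.06 ± 0.21, adjusted p = 2.14e-05), as it was for the sensor Vsnl1 (-0.96 ± 0.14, adjusted p = 0.000189). Calm2 and Calm3 make the same protein, calmodulin, and both have near-identical copies. Calm3 was higher (0.77 ± 0.11, adjusted p = 0.000144). Calm2 was lower (-0.46 ± 0.14, adjusted p = 0.0217), but not without BTBR vehicle replicate 3 or without C57 vehicle replicate 1 or 2. In the CaMKII group Camk2a was lower and its inhibitor Camk2n1 higher (0.66 ± 0.14, adjusted p = 0.00232). Camk2b (-0.05 ± 0.10), Camk2d (-0.09 ± 0.19), Camk2g (-0.12 ± 0.10) and Camk2n2 (0.40 ± 0.18) did not pass. Without BTBR vehicle replicate 2 the group had 2 higher.

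Glucocorticoid target genes are of interest because raised corticosterone has been described in BTBR mice. Of 21 genes 5 were higher (23.8%) and 5 lower (23.8%), with a median of 0.03. Both shares were near those of all nuclear genes, 22.3% higher and 20.7% lower. Tsc22d3, the glucocorticoid-induced leucine zipper (X chromosome, 140539528-140600659), had 35.0, 22.8 and 42.3 FPKM in BTBR vehicle, against 11.3, 12.2 and 14.3 FPKM in C57 vehicle. All BTBR libraries were above all C57 libraries, replicate 2 being the lowest of the BTBR ones (1.31 ± 0.17, adjusted p = 0.000108). Fkbp5, a co-chaperone of the receptor, had 5.01, 5.23 and 12.6 FPKM in BTBR vehicle, against 2.80, 2.66 and 2.79 FPKM in C57 vehicle, with replicate 3 more than 7 FPKM above the other BTBR libraries (1.09 ± 0.27, adjusted p = 0.00666). The 5 lower members were targets, an enzyme and both receptors. Mt2, a metallothionein that glucocorticoids can induce, stood at -1.07 ± 0.37, Hsd11b1, the enzyme that regenerates the hormone, at -0.51 ± 0.18 with overlapping libraries, and Errfi1, a feedback inhibitor of a growth factor receptor, at -0.41 ± 0.13, not called without BTBR vehicle replicate 1 or 2 or without C57 vehicle replicate 2 or 3. Mt2 and Hsd11b1 lie outside the naming rule and were chosen after their values were seen. The others were the receptor genes, Nr3c2 at -0.68 ± 0.14, adjusted p = 0.00209 and Nr3c1 at -0.39 ± 0.11, adjusted p = 0.0131, the second not called without C57 vehicle replicate 1. The counts rested on single libraries. Without BTBR vehicle replicate 2 they were 9 higher and 2 lower, without replicate 1 they were 3 and 3, and without replicate 3 they were 2 and 4. Without C57 vehicle replicates 1, 2 and 3 in turn they were 3 and 2, 3 and 3, and 5 and 2.

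Clock genes had 7 of 21 lower and 3 higher (median -0.09). Nr1d1, the repressor REV-ERB alpha (chromosome 11, 98767932-98775333), had 10.9, 9.38 and 9.63 FPKM in BTBR vehicle, against 35.7, 34.0 and 35.1 FPKM in C57 vehicle. The replicates of each group lay within 2 FPKM of each other, and the groups were more than 20 FPKM apart (-1.71 ± 0.11, adjusted p = 1.24e-06). Its relative Nr1d2 was higher (0.45 ± 0.08, adjusted p = 0.000522, 1 near-identical copy) and the output factor Hlf lower (-0.83 ± 0.11, adjusted p = 0.000128). The higher count was 5 without BTBR vehicle replicate 2. The time of day of tissue collection is not given in the labels. Of 27 genes of cholesterol synthesis and its control 9 were lower and 3 higher (median 0.02), with the enzyme Nsdhl at -0.64 ± 0.12, adjusted p = 0.00108, the master regulator Srebf2 at -0.42 ± 0.09, adjusted p = 0.00314 and the lipid carrier Apoe at 1.24 ± 0.16, adjusted p = 9.74e-05. The lower count was 5 without BTBR vehicle replicate 3 and without C57 vehicle replicate 2. Chromatin regulators tied to autism had 9 of 30 lower and 2 higher (median -0.09), with Arid1b, a subunit of the BAF remodelling complex, at -0.80 ± 0.09, adjusted p = 3.27e-05, Mbd5, a methyl-CpG-binding domain protein, at -0.81 ± 0.10, adjusted p = 5.87e-05 and the DNA methyltransferase Dnmt3a at 0.71 ± 0.11, adjusted p = 0.000305. The higher count was 1 without BTBR vehicle replicate 2 or 3 and without C57 vehicle replicate 1 or 3.

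The vacuolar proton pump, which acidifies lysosomes and synaptic vesicles, had 8 lower and 2 higher of 18 (median -0.17), with the stalk subunit Atp6v1g2 at -1.78 ± 0.16, adjusted p = 1.06e-05. The higher count was 1 without BTBR vehicle replicate 2 and without C57 vehicle replicate 3.

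Direction went with gene structure. Among nuclear protein-coding genes that span under 10 kb, 29.3% were higher and 20% lower of 2892. Among those that span 200 kb and over, 6.43% were higher and 36.6% lower of 778, with a median of -0.22. Exons richer in G and C, taken from the longest transcript of each gene, went with higher values. At a GC content under 45%, 18.4% were higher and 21.7% lower of 2936 genes, and at 60% and over 37.5% were higher and 14.6% lower of 637, with a median of 0.24. Between the strains under ASIV the medians ran the same way. They were -0.07 at a GC content under 45%, 0.17 at 60% and over, and -0.10 at spans of 200 kb and over. Many synaptic genes are long, and 30 of the 54 synaptic adhesion genes span 100 kb and over, of which 16 were lower; of the 24 shorter ones 11 were lower. The part of gene span in the group counts was not tested. Long noncoding RNAs had 19.1% higher and 16.8% lower of 655, and processed pseudogenes 25.5% and 19.6% of 501. By chromosome the share called higher ran from 16.2% on chromosome 13 to 27.6% on chromosome 19.

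**Figure D4:**
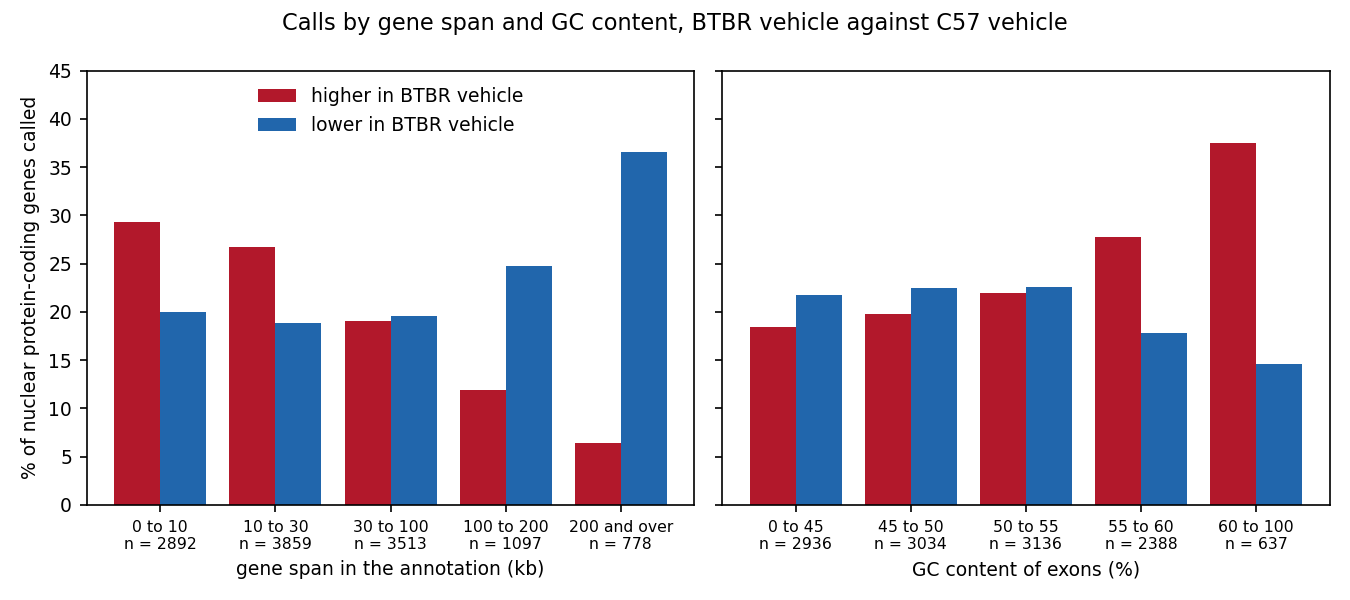
Share of nuclear protein-coding genes called higher (red) and lower (blue) in BTBR vehicle, by the span of the gene in kb (left) and by the GC content of its exons in % (right), with the number of genes under each pair of bars. The share lower reaches 36.6% at spans of 200 kb and over, and the share higher reaches 37.5% at a GC content of 60% and over.

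The strain difference under vehicle was then set beside that between BTBR ASIV and C57 ASIV mice. The group means of this second comparison come from other libraries. Its SEs and calls rest on the spread pooled over all groups, the vehicle libraries included, so the calls of both comparisons are not independent. Under ASIV 343 nuclear genes were called (2.53%), 178 higher (1.31%) and 165 lower (1.22%), with 2609 at an unadjusted p under 0.05. Of these 343 genes 263 were called in the same direction under vehicle, which is 76.7% of the ASIV calls and 4.51% of the vehicle calls, 127 of them higher and 136 lower. Called in opposite directions were 3 genes, Pitpnm2, Snrpd1 and Rnase4. The median absolute log2 difference of the genes called under vehicle was 0.54 under vehicle and 0.16 under ASIV. A test of the difference between both strain differences called 1915 genes (14.1%), 999 with a positive (7.37%) and 916 with a negative value (6.76%). That count was 1228, 1146 and 1234 without C57 vehicle replicates 1, 2 and 3 in turn and 1198 without C57 ASIV replicate 1. Of the genes higher under vehicle 954 had a significantly larger value there than under ASIV and 5 a smaller one, and of the genes lower under vehicle 858 had a significantly more negative value there and 2 a less negative one. The interaction includes the vehicle libraries by which these genes were picked, so these counts and medians are descriptions.

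Genes held in both settings included several with large values. Pttg1 stood at -2.70 ± 0.12 under vehicle and at -3.17 under ASIV, Cort at -2.48 ± 0.25 and -2.29, Myoc at -2.38 ± 0.29 and -1.66, and Amd2 at 2.37 ± 0.16 and 1.85, and none of these 4 pairs was called different. Acp1, a low molecular weight phosphatase, with 1 near-identical copy, stood at -1.75 ± 0.10 and -1.63, Scg5, a chaperone of secretory granules, at 1.05 ± 0.14 and 1.23, and Myo7a, an unconventional myosin, at -1.47 ± 0.12 and -1.31. Tsc22d3, the glucocorticoid target, was also held (1.31 ± 0.17 and 0.92). Acp1, Scg5 and Myo7a lie outside the naming rule and were chosen after their values were seen. For other genes the strain difference was closer to 0 under ASIV. Atp5g2 stood at -0.23 under ASIV, Snrpf at -0.61, Stmn3 at -0.19, Sst at -0.04 and Nr1d1 at -0.23, and the interaction was called for each. Of the 625 genes with a called difference of at least 2-fold under vehicle, 89 were called in the same direction under ASIV, and the interaction was called for 394.

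Synaptic adhesion had 1 lower and 0 higher of 54 under ASIV, against 1.22% lower and 1.31% higher among all nuclear genes. Its median was -0.35 under vehicle and -0.20 under ASIV. The interaction was called for 5 of its members, against 14.1% of all nuclear genes. For the proteasome the ASIV counts were 0 higher and 1 lower of 47 (median -0.09), and 18 members had a called interaction. The spliceosome had 27 of 53 members with a called interaction and cytosolic ribosomal proteins 29 of 82. In the glucocorticoid list the median was 0.58 under ASIV, with 4 of 21 higher and 0 lower, and 0 members had a called interaction. For cholesterol synthesis the median was -0.40 under ASIV, with 5 of 27 lower and 1 higher.

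**Figure D5:**
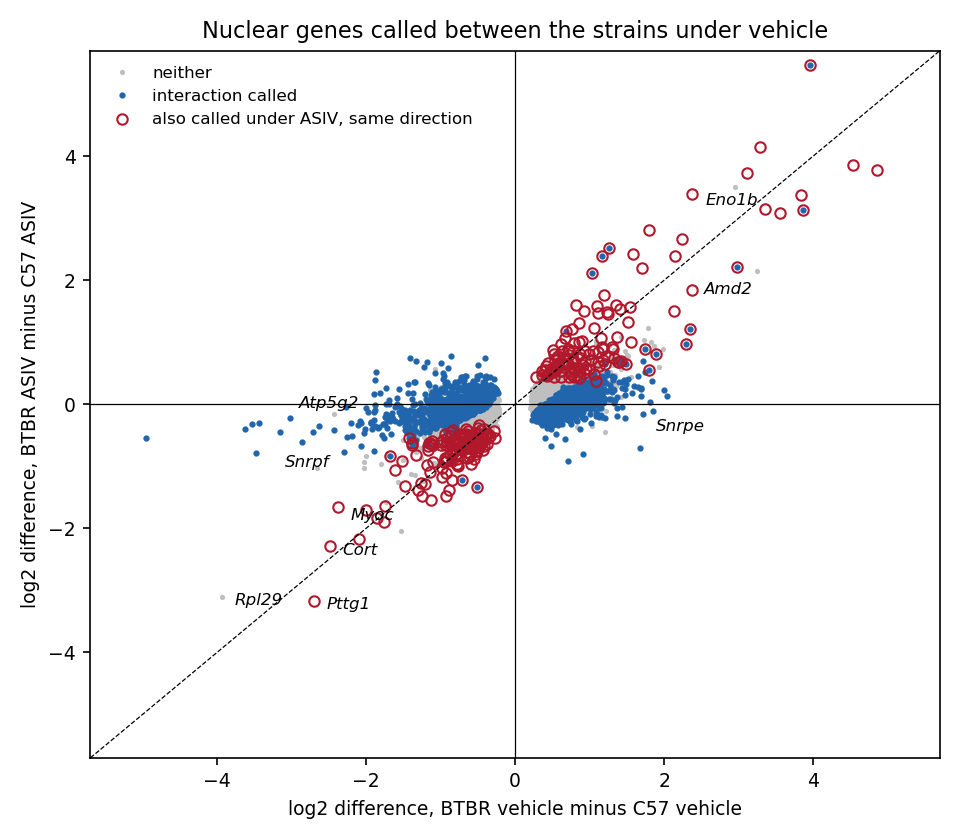
Log2 difference between the strains under vehicle (horizontal, BTBR vehicle minus C57 vehicle) and under ASIV (vertical, BTBR ASIV minus C57 ASIV) for the 5828 nuclear genes called under vehicle, with the dashed line at equal values. The 263 genes also called in the same direction under ASIV (red circles) include Pttg1, Cort and Eno1b near that line, and among genes with a called interaction (blue) Atp5g2 and Snrpe lie nearer 0 under ASIV than under vehicle.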

How the data were processed

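RNA of the medial prefrontal cortex was sequenced from 4 groups of 3 mouse libraries on the Illumina platform, per the labels. The submitters' processing notes name HISAT2 2.0.5 and the genome build mm10; the annotation, counting program, strand setting and filters were not given in the sources used here. The deposited table holds FPKM values computed by the authors for 17283 genes, with 0 other columns of per-sample values, and 17273 genes matched GENCODE M21 by their identifier. Nearly all values were whole multiples of 1 fragment (95.7 to 95.8% within 0.02), which gave the depth of each library. FPKM values divide by all fragments, mitochondrial ones included, so a change in those moves all other genes.

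Values were taken as log2(FPKM + 1), which understates changes of low genes. limma 3.58.1 in R 4.3.3 fitted the 4 group means (8 residual degrees of freedom, trend and robust settings) to the 13586 genes that passed the filter, with Benjamini-Hochberg adjustment over all of them. Near-identical copies were found with minimap2 2.31, and tables and figures were made in Python 3.11.15 (pandas 2.3.3, numpy 2.4.6, matplotlib 3.10.9).

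The gene lists and comparisons were chosen with earlier results of these data known. Genes are named by rule: the 10 with the largest called difference in each direction without overlap of groups, 8 in each direction among genes averaging at least 100 FPKM, up to 3 called members of each list and direction by smallest p, all members of a few small lists, and 5 in each direction by interaction p. Not every gene that the rule takes is reported here. Same-numbered BTBR vehicle and C57 vehicle libraries were not treated as pairs: their deviations from the group means correlated at -0.151, -0.00661 and 0.0415. Pairing with the ASIV libraries was not checked. Alternatives covered the pseudocount, the filter, 5 scalings, the variance model, recovered fragments, each library left out and a fit of the 6 vehicle libraries alone. A striatal marker term was added after seeing the data.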

Additional observations from a re-analysis of the deposited data

Results flagged for a closer look

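The strain difference under vehicle differed from that under ASIV, by the interaction term of the limma fit, in 1915 nuclear genes. The values that follow are the log2 strain difference (BTBR minus C57) under vehicle minus that under ASIV, for named genes whose interaction was called. Lower in BTBR under vehicle, with a negative value, were Atp5g2 (-2.79), Chchd10 (-2.28), Snrpf (-2.26), the microglial gene Cd68 (-2.05) and the endoplasmic reticulum protein Praf2 (-1.94). So were Atp6v0c (-1.53), the clock gene Nr1d1 (-1.48), the synapsin Syn1 (-1.44) and Srr (-1.19), the serine racemase that makes the NMDA receptor ligand D-serine. Higher in BTBR under vehicle, with a positive value, were Snrpe (1.88), Ctxn2 (1.43), Phf5a (1.39), Dpm3 (1.37), a subunit of dolichol-phosphate mannose synthase, and Mrfap1 (1.27). The same held for Atp5e (1.24), Romo1 (1.23), Msrb2 (1.07), a mitochondrial methionine sulfoxide reductase, Ccdc85b (1.03), Coprs (0.98) and Fbxo2 (0.85). Under ASIV Snrpe stood at -0.16, Coprs at -0.07 and Msrb2 at -0.05, none of them called. The genes were named partly by the size of their difference under vehicle, and what sets the vehicle libraries apart was not tested. The mitochondrial share of fragments was 0.614 to 1.16% in BTBR vehicle and 5.01 to 5.42% in C57 vehicle, 3.73 to 4.14% in BTBR ASIV and 3.50 to 5.38% in C57 ASIV.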

How the results depend on the processing

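Across the alternatives the count of nuclear genes called under vehicle stayed within 1.5 times its value of 5828. Leaving out each of the 12 libraries in turn gave 4516 to 5903, with 2335 to 3046 higher and 2146 to 2857 lower. The interaction count was less steady: it ran from 1146 to 2156 with a library left out, the positive calls from 551 to 1187 and the negative ones from 575 to 969. Without C57 vehicle replicates 1, 2 and 3 in turn there were 1228, 1146 and 1234 calls (641, 551 and 648 positive, 587, 595 and 586 negative), and without C57 ASIV replicate 1 there were 1198 (623 positive, 575 negative). Positive calls were 570 with equal FPKM sums without mitochondrial genes. With a replicate block there were 5778 calls under vehicle (2998 higher, 2780 lower) and 1839 for the interaction. Scaling moved the direction most among the settings tried: without mitochondrial fragments 2556 were higher and 3225 lower, and with TPM 3279 and 2285. Of 272 called genes tried one by one under the alternatives, 228 kept the call in every alternative, 44 lost it in some and 0 reversed. Genes that had not passed changed sign: Camk2b was at 0.0106 with TPM and at -0.161 to 0.0169 with a library left out (0.0169 without BTBR vehicle replicate 3), and Camk2d was at -0.309 to 0.110 with a library left out (0.110 without BTBR vehicle replicate 1). The cause was not tested. Depth limits genes near 1 FPKM, and 3 libraries a group cannot give an exact permutation p below 0.1 for a single value.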
